A study of Mus musculus with 6 samples.

Results

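Glycolysis and the response to low oxygen were followed in mouse lung through 34 genes, chosen by symbol from the 17973 rows of the mRNA count table: 24 glycolytic genes (glucose import, the enzymes, lactate handling and the pyruvate dehydrogenase kinases) and 10 genes that sense low oxygen or are induced by it. All 34 were in the table and all 34 passed the filter on low counts. The tissue was whole lung of C57BL/6 mice. The silicosis libraries (N129, N136 and N138) came from lungs into which silica, 8 mg suspended in 40 µL sterile saline, had been instilled once through the trachea, and the control libraries (C7, C8 and C9) from lungs that the series text describes as given sterile normal saline. Lungs were frozen after 90 days. No source used here gives age, sex or whether each library is a separate mouse. The p-values therefore cover only variation among these libraries, which may be technical.

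Glycolysis splits glucose into pyruvate. Cells that make lactate from that pyruvate regenerate the cofactor NAD+ and can go on without oxygen, and activated macrophages and dividing cells do so even where oxygen is present. The hypoxia-inducible factors (HIFs) are pairs of an oxygen-labile alpha subunit, HIF-1 alpha (Hif1a) or HIF-2 alpha (Epas1), and a stable partner. Prolyl hydroxylases (Egln genes) mark the alpha subunit for destruction when oxygen is present, so HIF activity is set largely at the protein, which mRNA counts do not measure. HIFs bind the core letters ACGTG or GCGTG and are known to induce most glycolytic genes. In lung, Epas1 is known for its high level in endothelium, and Vegfa for its level in alveolar type 1 cells.

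More glycolytic genes were higher than lower in silicosis, and the hypoxia genes moved both ways. Of the 24 glycolytic genes 13 rose, 2 fell and 9 did not pass; of the 10 hypoxia genes 3 rose, 2 fell and 5 did not pass. Calls rest on edgeR's quasi-likelihood test with Benjamini-Hochberg adjustment (threshold 0.05). Over all 34 this gave 16 higher and 4 lower, and over all 15808 tested mRNAs 31.8% were called, 15.3% higher and 16.5% lower. The share called was 62.5% of the glycolytic and 50% of the hypoxia genes. The median log2 fold change, silicosis over control, was 0.51 for the glycolytic genes, 0.34 for the hypoxia genes and 0.02 for all tested mRNAs. Silicosis and control libraries did not overlap for 23 of the 34 genes, against 47.7% of all tested mRNAs. Of all 34 genes 6 were called at least 2-fold higher and 1 at least 2-fold lower, against 5.39% and 3.03% of all tested mRNAs. Among those called higher, 6 of 16 genes and 852 of 2421 mRNAs reached 2-fold. Among those called lower, 1 of 4 genes and 479 of 2602 mRNAs did. The authors' deposited table has 16 of these genes higher and 5 lower at the same threshold, with the same call for 33 of 34; the exception was P4ha1. That table calls 32.1% of its mRNAs. With 1 library left out, the share of all tested mRNAs called by edgeR was 22.2% without N129, 27.2% without N136, 32.6% without N138, 22.7% without C7, 21.7% without C8 and 24.3% without C9, so fewer mRNAs were called in all of these except without N138.

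**Figure D1:**
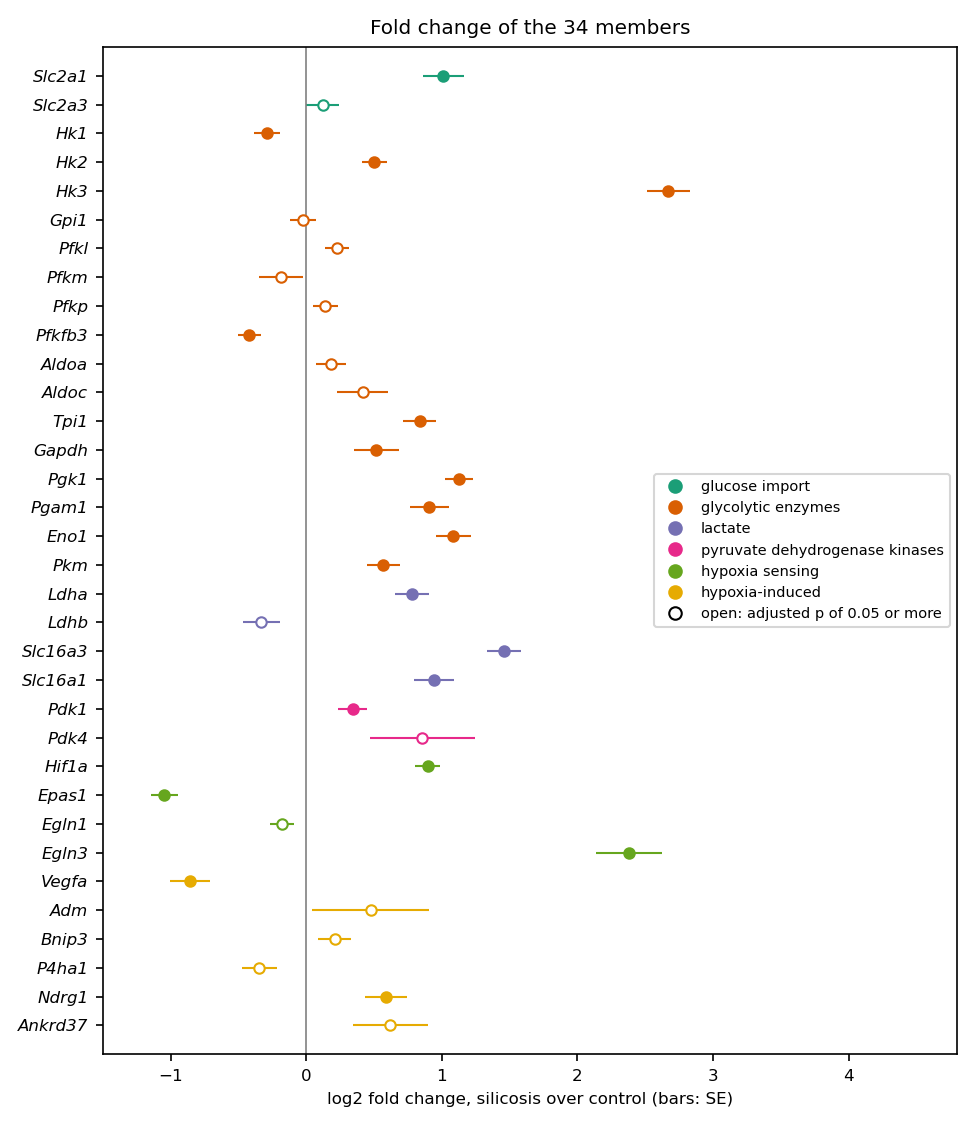
Fold change of each of the 34 genes (log2, silicosis over control; bars are the SE, n = 3 libraries a group), coloured by role, with filled points for adjusted p under 0.05. Hk3 (2.67) and Egln3 (2.38) lie farthest to the right, Epas1 (-1.05) and Vegfa (-0.86) farthest to the left, and Gpi1, the phosphofructokinases and the aldolases lie between -0.19 and 0.42 with open points.

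The mRNA libraries held between 33698920 and 44000748 counts. Values are normalised counts (CPM, counts per 1000000 after TMM scaling). Markers of other cells differed between the groups. The 8 macrophage markers summed to between 5600 and 10131 CPM in silicosis, most of it Lyz2, against between 3233 and 3833 CPM in controls, and 6 of 8 rose; none was at 0. The 7 tested neutrophil markers included 4 that rose. Of 8 endothelial markers 6 fell, with sums of 2087 to 2316 CPM in silicosis and 3883 to 4314 CPM in controls, and of 7 alveolar type 1 markers 4 fell. The 7 alveolar type 2 markers, which check the labelled tissue, summed to between 15671 and 23267 CPM in silicosis and between 16940 and 19741 CPM in controls. Adipocyte markers rose for 3 of 4 tested, with sums of 52.6 to 105 CPM in silicosis and 15.4 to 28.0 CPM in controls. Of 9 tested striated muscle markers 3 rose and 6 did not pass. The list's sums were 112 to 201 CPM in silicosis and 76.2 to 248 CPM in controls, highest in C9. These sums mix heart and skeletal muscle genes. Myh6, of heart muscle, had 83.1, 41.3 and 72.8 CPM in N129, N136 and N138, against 63.0, 52.1 and 193 CPM in C7, C8 and C9. Acta1, of skeletal muscle, had 0.365, 37.8 and 73.1 CPM in N129, N136 and N138, against 0.104 to 0.191 CPM in controls. In whole lung, more or fewer cells of a type and more or less RNA per cell cannot be told apart, and the part of these cell types in the results below was not tested.

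Glucose enters cells through facilitative transporters. Slc2a1 (GLUT1), the widespread one, had 58.9, 47.3 and 59.9 CPM in N129, N136 and N138, against 22.6, 27.1 and 32.6 CPM in C7, C8 and C9. All silicosis libraries lay above all controls. The log2 fold change was 1.01 (SE 0.15, edgeR adjusted p = 0.00138). Slc2a3 (GLUT3), the high-affinity transporter of neurons and leukocytes, had 19.3 to 24.1 CPM in silicosis and 19.1 to 21.5 CPM in controls, and did not pass (adjusted p = 0.483). The log2 ratio of Slc2a3 to Slc2a1 counts averaged -1.34 ± 0.07 in silicosis and -0.44 ± 0.18 in controls (SD, n = 3 each), so their balance lay toward Slc2a1 in all silicosis libraries.

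Hexokinases trap glucose in the cell as glucose 6-phosphate, and the 3 isoforms went different ways. Hk3, an isoform known from myeloid cells, had 30.6, 34.5 and 42.5 CPM in N129, N136 and N138, against 5.09, 5.53 and 6.29 CPM in C7, C8 and C9. This was the widest gap among the 34 genes, with a log2 fold change of 2.67 (SE 0.16, edgeR adjusted p = 1.7e-05), or 6.36-fold. Of the macrophage markers 6 of 8 rose, and of the tested neutrophil markers 4 of 7; their part in the Hk3 difference was not tested. Hk2, the inducible isoform and a known HIF target, had 66.7, 59.7 and 57.1 CPM in silicosis and 43.7, 43.8 and 42.1 CPM in controls. Its 3 control values lay within a narrow range, and the log2 fold change was 0.50 (SE 0.09, edgeR adjusted p = 0.0041). Hk1, the constitutive isoform, had 81.6 to 96.8 CPM in silicosis and 105 to 116 CPM in controls. That fall was small (log2 fold change -0.29, SE 0.10, edgeR adjusted p = 0.0488). It no longer passed without N129, N138 or any 1 control library, where adjusted p lay between 0.0769 and 0.128, without the filter on low counts (0.0509) or with library totals alone (0.141). Levels were also taken per kilobase of exon, the union of all annotated exons. In silicosis they were 9.74 ± 1.64 CPM per kilobase for Hk3, 10.3 ± 0.833 for Hk2 and 10.6 ± 0.941 for Hk1 (SD, n = 3). On this length they lay within their spread. In controls the same level was 1.53 ± 0.165 for Hk3, 7.24 ± 0.153 for Hk2 and 13.0 ± 0.657 for Hk1, each apart from the next. Hk1 had 8532 bases of exon but 846 evenly spaced windows along its longest transcript. Hk2 had 5969 bases and 1093 windows, and Hk3 3682 bases and 634 windows. The union thus exceeds the longest transcript most for Hk1. Whether the 3 isoforms had like levels in silicosis therefore depends on the length used.

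The middle of the pathway showed no call. From glucose 6-phosphate isomerase (Gpi1) through the phosphofructokinases (Pfkl, Pfkm, Pfkp) to the aldolases (Aldoa, Aldoc), 0 of 6 genes passed edgeR's threshold, and their log2 fold changes ran from -0.19 to 0.42 with a median of 0.16. At an unadjusted p under 0.05 only Pfkl came out, at 0.0304, and limma-voom and the DESeq2 Wald test called 0 as well. Pfkl, the liver-type phosphofructokinase, had 66.1, 63.3 and 63.0 CPM in silicosis and 54.6, 58.2 and 51.8 CPM in controls, without overlap. Pfkm, the muscle type, was highest in N138 among the silicosis libraries, at 26.0 CPM against 17.2 and 18.6 CPM in N129 and N136, and controls had 22.0 to 25.5 CPM. Without N138 its log2 fold change was -0.39 with an edgeR adjusted p of 0.0449. Striated muscle markers summed to 201 CPM in N138, against 117 and 112 CPM in N129 and N136. Their sum was highest in C9, at 248 CPM, where Pfkm had 22.9 CPM. Of that sum, 193 CPM were the heart muscle gene Myh6. The skeletal muscle gene Acta1 had 0.365, 37.8 and 73.1 CPM in N129, N136 and N138, and 0.104 CPM in C9. The part of muscle in the Pfkm values was not tested. Aldoa and Pfkl passed when library totals replaced the TMM factors (adjusted p = 0.0478 and 0.0204), a scaling that moved the median of all genes up by 0.10 on the log2 scale.

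Pfkfb3, whose product makes fructose 2,6-bisphosphate, the activator of phosphofructokinase, and which is a textbook HIF target, went the other way. It had 146, 134 and 148 CPM in N129, N136 and N138, against 198, 184 and 191 CPM in C7, C8 and C9. All silicosis libraries lay below all controls, and the log2 fold change was -0.42 (SE 0.09, edgeR adjusted p = 0.00586). Its relatives Pfkfb2 and Pfkfb4 did not pass, with log2 fold changes of 0.27 and 0.14.

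From triose phosphate isomerase to pyruvate kinase every step rose. All 6 genes passed, with log2 fold changes from 0.52 to 1.13 and a median of 0.87; the groupings into a middle and a later part follow the order of the pathway but were made after the values were seen. Pgk1, phosphoglycerate kinase, which makes the first ATP of the pathway's payoff, had 114, 126 and 110 CPM in N129, N136 and N138, against 53.6, 57.6 and 48.7 CPM in C7, C8 and C9. Its silicosis values were near 2.18 times those of controls (log2 fold change 1.13, SE 0.10, edgeR adjusted p = 0.000122). Eno1, alpha-enolase, had 268, 321 and 233 CPM in silicosis and 116, 134 and 137 CPM in controls. Tpi1, which interconverts the triose phosphates, had 112, 134 and 116 CPM in silicosis and 71.5, 74.8 and 56.8 CPM in controls. N136 was the highest library for each of these genes. Pgam1, phosphoglycerate mutase, averaged 82.0 ± 17.1 CPM in silicosis and 43.8 ± 2.78 CPM in controls (SD, n = 3 each). Pkm, whose transcripts encode the M1 and M2 pyruvate kinases together in these counts, averaged 391 ± 44.0 CPM in silicosis and 263 ± 33.7 CPM in controls.

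Gapdh, a glycolytic enzyme that is widely used as a reference gene, was not constant between the groups. It had 368, 471 and 288 CPM in N129, N136 and N138, against 236, 259 and 292 CPM in C7, C8 and C9. N138 lay just under C9, so the groups overlapped, and the spread in silicosis was wide. The log2 fold change was 0.52 (SE 0.17, edgeR adjusted p = 0.0432). The call ended without N129, N136 or any 1 control library, with edgeR adjusted p between 0.0592 and 0.142, and the log2 fold change was 0.32 without N136.

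Several of these later enzymes have processed gene copies whose sequences match theirs. Of windows of 50 bases along the longest transcript, 72.0% for Eno1, 67.7% for Pgk1, 41.6% for Pgam1, 34.4% for Pkm and 27.6% for Gapdh were found in transcripts of other genes, against 7.69% for Tpi1. Their counts are therefore uncertain, but these are shares of windows, and the share of counts affected is not known. Eno1b, a near copy of Eno1, had 2 or 3 counts in every library. Of the 23 members that share under 10% of their windows, 10 rose, 4 fell and 9 did not pass, and of the 15 glycolytic ones among them 7 rose and 2 fell.

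**Figure D2:**
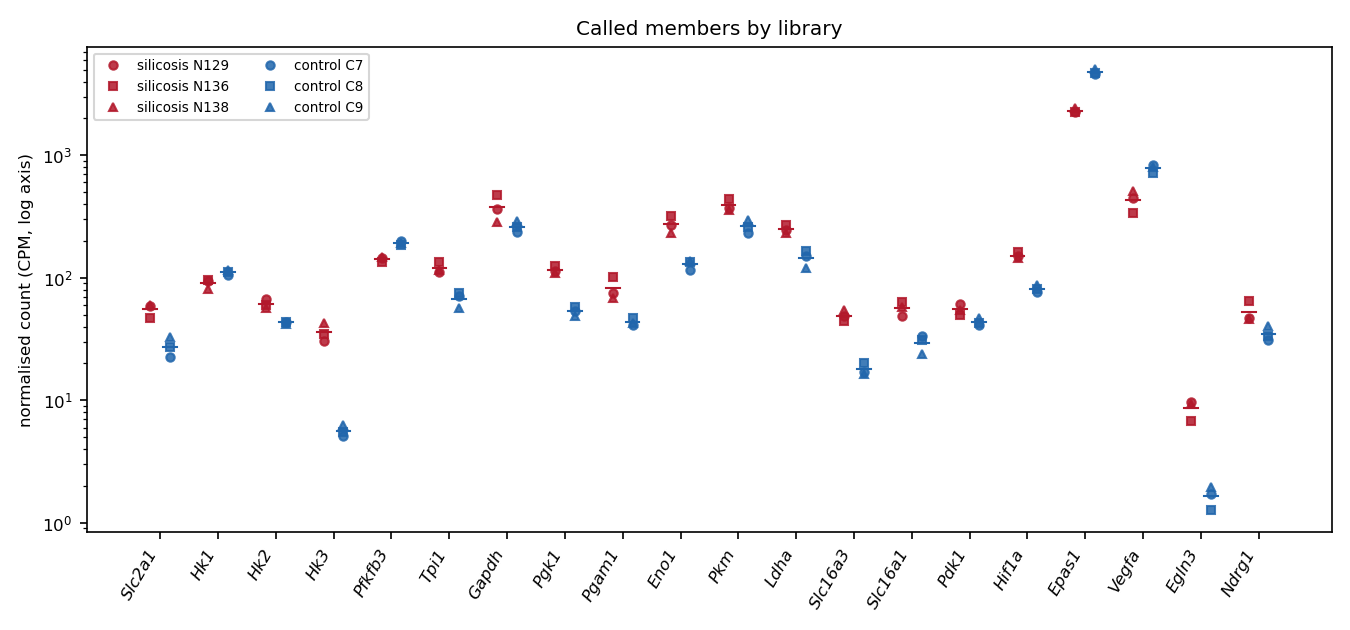
Normalised count (CPM, log axis) in each library for the 20 called genes, with silicosis libraries in red to the left and control libraries in blue to the right of each gene; marks are libraries and lines are group means. Gapdh is the only gene of these 20 whose groups overlap, and Hk3 and Egln3 show the widest gaps.

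Of the 4 lactate genes 3 rose (Ldha, Slc16a3 and Slc16a1) and 1, Ldhb, did not pass. Ldha, the muscle-type lactate dehydrogenase subunit that favours lactate formation, had 245, 271 and 231 CPM in N129, N136 and N138, against 149, 164 and 121 CPM in C7, C8 and C9 (log2 fold change 0.78, SE 0.12, edgeR adjusted p = 0.00181). Ldhb, the heart-type subunit, had 73.4, 74.4 and 83.0 CPM in silicosis and 84.6, 87.6 and 118 CPM in controls. The Ldhb groups did not overlap, but the difference did not pass (log2 fold change -0.33, adjusted p = 0.0917). The log2 ratio of Ldha to Ldhb counts was 1.74, 1.87 and 1.48 in N129, N136 and N138, against 0.82, 0.91 and 0.03 in C7, C8 and C9. C9 stood apart from the other controls in this ratio. The group means differed by 1.11 on the log2 scale, or 0.83 without C9. Windows found in other genes made up 16.9% of Ldha and 26.7% of Ldhb.

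The lactate exporter Slc16a3 (MCT4), a HIF target of strongly glycolytic cells, had 48.8, 44.0 and 54.2 CPM in N129, N136 and N138, against 17.1, 20.1 and 16.4 CPM in C7, C8 and C9. Each silicosis library was more than 2 times any control, and the log2 fold change was 1.46 (SE 0.12, edgeR adjusted p = 0.000103). Slc16a1 (MCT1), which carries lactate either way, had 49.0, 62.9 and 57.4 CPM in silicosis and 33.6, 30.8 and 23.9 CPM in controls (log2 fold change 0.94, SE 0.15, edgeR adjusted p = 0.00172). Neither transporter shares windows with other genes.

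Pyruvate dehydrogenase kinases close the entry of pyruvate into the mitochondrial citric acid cycle. Pdk1, the HIF-induced isoform, averaged 55.3 ± 6.07 CPM in silicosis and 43.6 ± 2.87 CPM in controls, without overlap (log2 fold change 0.34, SE 0.11, edgeR adjusted p = 0.0405). The call ended without N129, N138, C7 or C8, with edgeR adjusted p between 0.0574 and 0.158. Pdk4, the isoform induced by fasting and glucocorticoids, was uneven: 37.0, 15.8 and 10.4 CPM in N129, N136 and N138, against 10.8 to 13.2 CPM in controls. N129 alone lay far above the controls and N138 lay below them all. The difference did not pass (log2 fold change 0.86, SE 0.39, adjusted p = 0.124), and without N129 it was 0.17, while without N138 it was 1.18 with an adjusted p of 0.0156. Among the silicosis libraries, N129 also had the highest sum of adipocyte markers, 105 CPM against 52.6 and 53.3 CPM in N136 and N138. The same held for B and T cell markers, at 257 CPM against 190 and 114 CPM. The part of these cells in the Pdk4 values was not tested. Pdk2, a further isoform outside the 34 genes, fell to between 25.0 and 26.5 CPM in silicosis, against 45.4 to 56.2 CPM in controls (log2 fold change -0.95, SE 0.11, edgeR adjusted p = 0.000384).

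Among the oxygen sensors and HIF subunits, both alpha subunits changed, in opposite directions. Hif1a had 149, 161 and 144 CPM in N129, N136 and N138, against 76.7, 80.8 and 87.0 CPM in C7, C8 and C9 (log2 fold change 0.90, SE 0.09, edgeR adjusted p = 0.000214). Epas1 had 2242, 2271 and 2429 CPM in silicosis and 4599, 4681 and 5055 CPM in controls (log2 fold change -1.05, SE 0.10, edgeR adjusted p = 0.000167). Neither gene's groups overlapped. Epas1 still led per kilobase of exon, with 414 ± 18.0 CPM per kilobase in silicosis and 855 ± 43.4 in controls, where Hif1a had 25.7 ± 1.49 and 13.8 ± 0.874 (SD, n = 3 each). The log2 ratio of Epas1 to Hif1a counts lay between 3.82 and 4.07 in silicosis and between 5.86 and 5.91 in controls, a difference of -1.94 between the group means. Of the 8 endothelial markers 6 fell and 2 did not pass, with a median log2 fold change of -0.80; their part in the Epas1 difference was not tested.

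The prolyl hydroxylases differed by isoform. Egln3 (PHD3), the most strongly HIF-inducible one, had 9.68, 6.81 and 9.26 CPM in N129, N136 and N138, against 1.71, 1.27 and 1.96 CPM in C7, C8 and C9. It rested on 297 to 371 counts in silicosis and 53 to 75 counts in controls, well apart, with a log2 fold change of 2.38 (SE 0.24, edgeR adjusted p = 0.000214). Egln1 (PHD2), the main oxygen sensor of most cells, had 76.9 to 84.6 CPM in silicosis and 84.6 to 95.5 CPM in controls and did not pass (log2 fold change -0.18, adjusted p = 0.158). Even after its rise Egln3 stayed far under Egln1 per kilobase of exon, at 3.22 against 22.3 CPM per kilobase in silicosis. The log2 ratio of Egln3 to Egln1 counts averaged -3.24 ± 0.34 in silicosis and -5.80 ± 0.38 in controls (SD, n = 3 each).

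**Figure D3:**
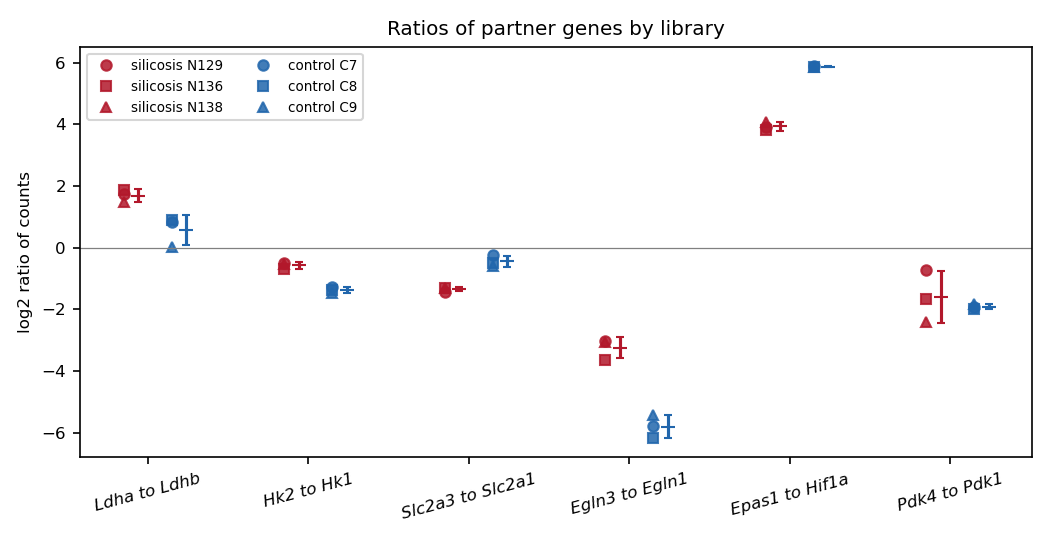
Log2 ratio of the counts of 6 pairs of genes with the same reaction or role, by library, silicosis in red left of control in blue; bars give the mean and SD of 3 libraries. The groups do not overlap for 5 pairs, and for Pdk4 to Pdk1 the silicosis libraries spread around the controls.

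Of the 6 genes listed as induced by HIFs outside glycolysis and oxygen sensing, Ndrg1 rose, Vegfa fell and 4 did not pass. This share called, 33.3%, lies near the 31.8% of all tested mRNAs. Vegfa, the main growth factor of blood vessels, had 444, 340 and 509 CPM in N129, N136 and N138, against 832, 714 and 800 CPM in C7, C8 and C9. All silicosis libraries lay below all controls (log2 fold change -0.86, SE 0.15, edgeR adjusted p = 0.00255). Of the 7 alveolar type 1 markers 4 fell and 3 did not pass, and their sums were 1948 to 2643 CPM in silicosis and 3579 to 3962 CPM in controls; their part in the Vegfa difference was not tested. Ndrg1, a stress-responsive gene of differentiation, had 47.1, 64.1 and 46.1 CPM in silicosis and 31.1, 33.4 and 40.2 CPM in controls (log2 fold change 0.59, SE 0.15, edgeR adjusted p = 0.0179), a call that ended without C7 or C8 (adjusted p = 0.0731 and 0.0665).

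The 4 others did not pass. P4ha1, a subunit of the collagen prolyl hydroxylase, had 101, 72.6 and 87.1 CPM in N129, N136 and N138, against 113, 120 and 99.4 CPM in C7, C8 and C9. Its groups overlapped in N129 and C9, and it had a log2 fold change of -0.35 (adjusted p = 0.0724); it passed with the DESeq2 Wald test (adjusted p = 0.0437) and by edgeR without N129 (0.0355). Bnip3, a mitophagy receptor, had 21.1 to 27.7 CPM in silicosis and 21.1 to 21.5 CPM in controls, and shares 62.3% of its windows with other genes. Adm, the vasodilator peptide adrenomedullin, had 11.1, 3.67 and 5.48 CPM in silicosis and 3.18 to 7.39 CPM in controls, with most of the difference in N129: the log2 fold change was 0.47, and -0.09 without that library. Ankrd37, a small ankyrin-repeat gene, had 2.18 to 3.44 CPM in silicosis and 1.51 to 1.94 CPM in controls (log2 fold change 0.62, adjusted p = 0.12).

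**Figure D4:**
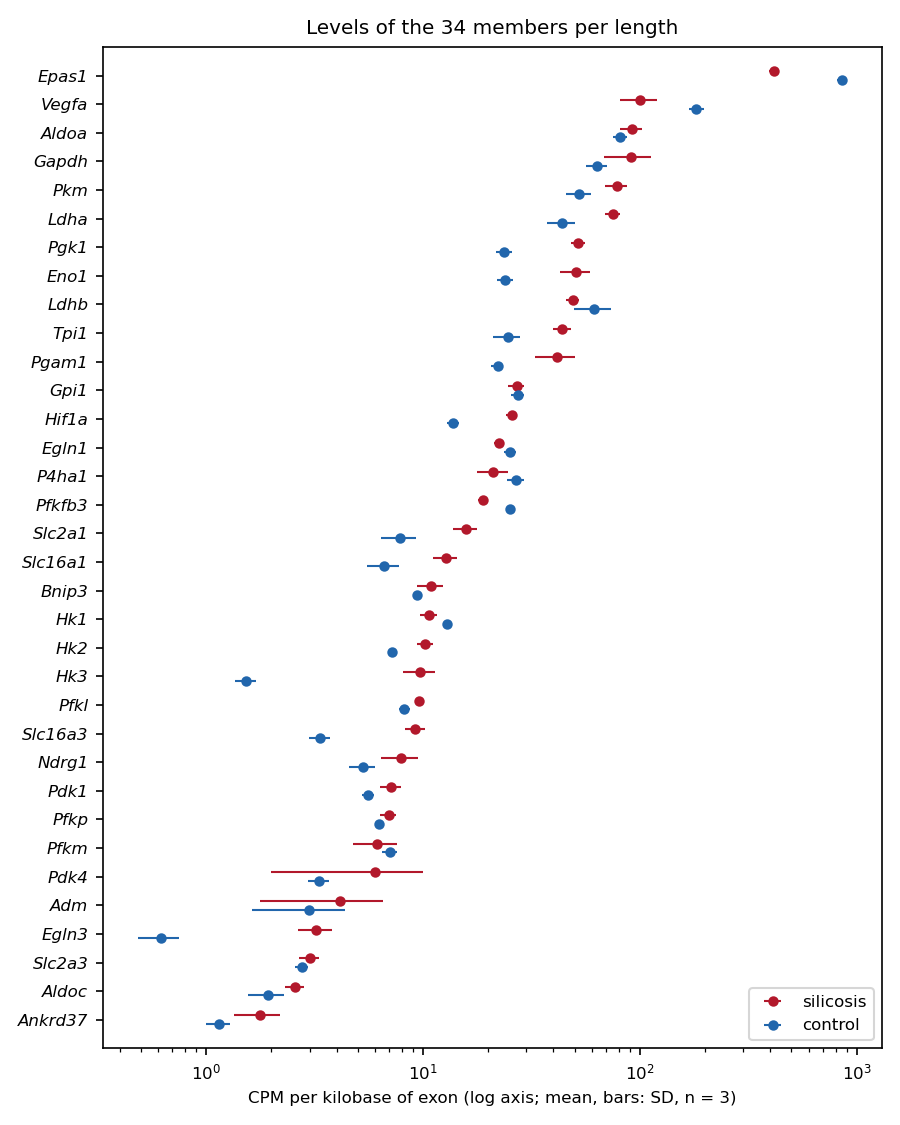
Level of each of the 34 genes per length (CPM per kilobase of exon, log axis; points are means and bars SDs of 3 libraries), silicosis in red above control in blue. On this length, the union of all annotated exons, Epas1 and Vegfa are the highest in both groups and the lowest levels include Ankrd37, Aldoc and Egln3. The union exceeds the longest transcript by unlike amounts, so ranks between genes may change with the length used. Aldoa had 3710 bases of exon and 300 windows along its longest transcript, and Vegfa 4285 bases and 681 windows.

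Promoter sequences are shown for 6 genes that rose, from glucose import, the enzymes, lactate handling and oxygen sensing, because they hold the letters that HIFs bind. They are the 250 bases before the RefSeq start site on build GRCm38.p6, read 5′ to 3′ on the gene's strand; capitals mark ACGTG or GCGTG on either strand, so the other strand's matches appear as CACGT and CACGC. For Ldha the start with the most matches is shown.
Slc2a1 (chr4:119108495-119108744, + strand): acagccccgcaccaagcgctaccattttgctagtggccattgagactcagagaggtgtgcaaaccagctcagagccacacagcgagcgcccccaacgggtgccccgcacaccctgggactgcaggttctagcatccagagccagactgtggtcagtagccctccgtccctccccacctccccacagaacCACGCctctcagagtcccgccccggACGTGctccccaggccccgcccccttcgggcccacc
Hk2 (chr6:82774455-82774704, - strand): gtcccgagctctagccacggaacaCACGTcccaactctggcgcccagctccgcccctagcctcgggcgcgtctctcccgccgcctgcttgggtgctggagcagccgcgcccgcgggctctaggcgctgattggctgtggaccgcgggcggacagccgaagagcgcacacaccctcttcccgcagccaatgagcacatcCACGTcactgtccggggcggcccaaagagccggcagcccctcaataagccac
Pgk1 (chrX:106186850-106187099, + strand): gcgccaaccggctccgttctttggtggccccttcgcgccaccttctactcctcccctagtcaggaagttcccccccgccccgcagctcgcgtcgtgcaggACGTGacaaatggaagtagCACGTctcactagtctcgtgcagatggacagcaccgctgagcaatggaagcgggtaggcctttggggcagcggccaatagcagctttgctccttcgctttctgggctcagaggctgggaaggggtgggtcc
Ldha (chr7:46845554-46845803, + strand): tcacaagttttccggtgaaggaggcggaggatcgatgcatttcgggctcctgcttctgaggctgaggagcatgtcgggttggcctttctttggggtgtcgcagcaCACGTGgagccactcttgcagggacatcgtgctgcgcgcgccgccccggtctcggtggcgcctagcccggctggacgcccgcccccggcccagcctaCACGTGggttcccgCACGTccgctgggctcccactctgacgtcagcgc
Slc16a3 (chr11:120948817-120949066, + strand): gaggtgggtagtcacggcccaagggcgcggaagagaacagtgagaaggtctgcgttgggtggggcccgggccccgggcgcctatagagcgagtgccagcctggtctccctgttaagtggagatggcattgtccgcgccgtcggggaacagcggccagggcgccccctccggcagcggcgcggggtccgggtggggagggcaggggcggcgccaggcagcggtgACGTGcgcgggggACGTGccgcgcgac
Egln3 (chr12:54203875-54204124, - strand): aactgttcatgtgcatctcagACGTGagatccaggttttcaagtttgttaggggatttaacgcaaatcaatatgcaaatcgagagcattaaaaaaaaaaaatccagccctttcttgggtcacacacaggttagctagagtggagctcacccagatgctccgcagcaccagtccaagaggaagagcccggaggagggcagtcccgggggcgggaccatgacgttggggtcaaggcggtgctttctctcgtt
In these stretches, Ldha held 5 matches, of which 4 lie in a pair of CACGTG palindromes that count once on each strand and are also the E-box letters that other factors bind. Pgk1 and Slc16a3 held 2 matches each, both ACGTG, with those of Slc16a3 beginning 27 and 14 bases before the start. Egln3 held 1, beginning 229 bases before it. Of the 34 genes 31 had an entry, with 45 start sites. Of these stretches 82.2% held a match, against 38.6% of all 32851 promoters of the same length. For ACGTG alone the shares were 48.9% and 16.6%. Stretches of close starts overlap, as for Eno1, Aldoa and Pfkm, so some matches count more than once. Base composition was not matched between these genes and all promoters. Matches did not separate genes by their call: 14 of 15 higher genes, 3 of 3 lower genes and 12 of 13 that did not pass had one. Pfkfb3, which fell, held 3 at one start and 1 at the other. A match describes the letters only.

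Other genes of the same pathways were called at shares around the 31.8% of all tested mRNAs, from 25% to 37.5% by list; the difference from the 34 genes was not tested. Of 32 tested other glycolysis and pyruvate genes 6 rose, 2 fell and 24 did not pass (25% called, median log2 fold change 0.15). Slc2a6, a lysosomal member of the glucose transporter family, had 20.2, 19.8 and 20.3 CPM in N129, N136 and N138, against 7.01, 6.22 and 6.60 CPM in C7, C8 and C9 (log2 fold change 1.60, SE 0.12, edgeR adjusted p = 6.16e-05). Its silicosis libraries lay close together and well above the controls. Eno2, the neuronal enolase, rose by 1.52 (SE 0.21), and Pdk2 fell as given above. Bpgm, which makes the haemoglobin regulator 2,3-bisphosphoglycerate in red cells and was singled out after its values were seen, had a log2 fold change of -0.74 (adjusted p = 0.0252). Of 6 red cell markers 3 fell and 3 did not pass, with sums of 298 to 449 CPM in silicosis and 480 to 2790 CPM in controls.

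Of 8 pentose phosphate genes 2 rose and 1 fell. Pgd, the second NADPH-making enzyme of the pathway, had 172, 224 and 165 CPM in silicosis and 98.6, 115 and 103 CPM in controls (edgeR log2 fold change 0.82, SE 0.13, adjusted p = 0.00167). Rpe, ribulose-phosphate epimerase, rose by 0.45 (SE 0.10). H6pd, the counterpart of the first enzyme in the endoplasmic reticulum, had a log2 fold change of -0.39 (SE 0.10). The first cytosolic enzyme, G6pdx, did not pass (log2 fold change 0.21). Of 10 glycogen genes 3 rose and 0 fell. Ppp1r3b, which brings protein phosphatase 1 to glycogen, rose by 0.92 (SE 0.16), and Ugp2, which makes UDP-glucose, by 0.58 (SE 0.14).

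Of 36 tested other hypoxia genes 10 rose, 3 fell and 23 did not pass (36.1% called, median 0.04). Lox, lysyl oxidase, which crosslinks collagen, had 106, 105 and 127 CPM in N129, N136 and N138, against 47.0, 61.2 and 51.9 CPM in C7, C8 and C9 (log2 fold change 1.08, SE 0.12, edgeR adjusted p = 0.000387). Bhlhe40, a transcriptional repressor, rose by 1.02 (SE 0.13). Flt1, a receptor for Vegfa on endothelium, fell by 0.91 (SE 0.09), close to its ligand. Singled out after their values were seen, the third alpha subunit Hif3a fell by 1.58 (SE 0.27) and the partner subunit Arnt2 rose by 1.89 (SE 0.30), from low levels, whereas the main partner Arnt had a log2 fold change of -0.19 (adjusted p = 0.125). Car9, carbonic anhydrase 9, a widely used hypoxia marker, had 1.47 to 2.09 CPM in silicosis and 1.72 to 1.89 CPM in controls (log2 fold change 0.06, SE 0.27). Epo had 0 to 4 counts per library and was not tested.

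**Figure D5:**
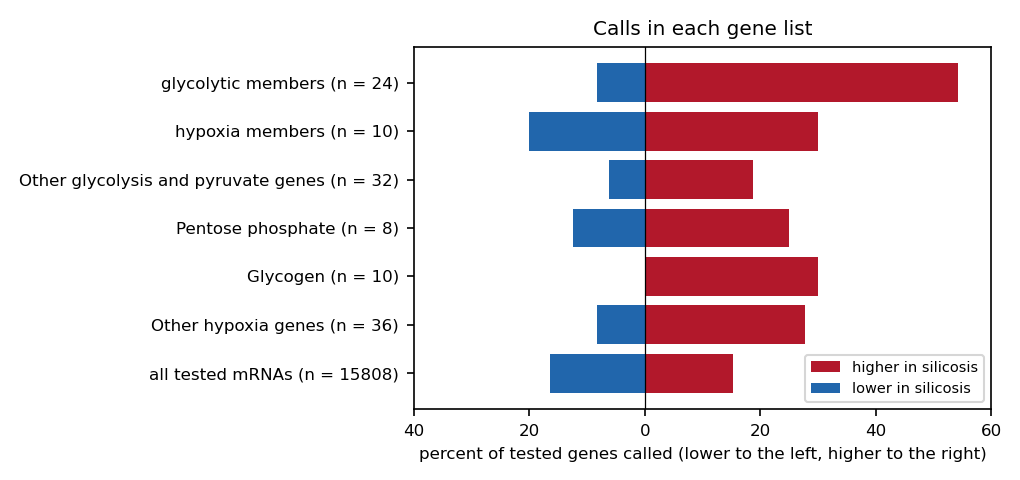
Percent of tested genes in each list called at an adjusted p under 0.05, with lower calls to the left of 0 and higher calls to the right, beside all 15808 tested mRNAs. The glycolytic genes have 13 of 24 higher and the all-gene bar is nearly even (15.3% higher, 16.5% lower).

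In the lncRNA table, where 5.78% of 3320 tested lncRNAs were called, 3 lncRNAs with a known link to hypoxia were measured, in CPM of that table. Neat1, the scaffold of nuclear paraspeckles, had 44329, 32146 and 45840 CPM in N129, N136 and N138, against 31153, 30213 and 24093 CPM in C7, C8 and C9. The groups did not overlap, but the difference missed the threshold (log2 fold change 0.52, SE 0.15, edgeR adjusted p = 0.059); it passed with limma-voom (0.0464), with no filter on low counts (0.0124) and without N136 (0.00491, log2 fold change 0.66). Under the 8 other alternatives its adjusted p lay between 0.0706 and 0.319. Malat1, a nuclear RNA of splicing speckles, did not pass (edgeR log2 fold change -0.10, adjusted p = 0.742). It had 449787 to 591912 CPM in silicosis and 466004 to 613785 CPM in controls, a large part of all lncRNA counts. CPM in the lncRNA table therefore depend in part on Malat1 itself. H19, an imprinted fetal transcript, had 31.8, 179 and 435 CPM in silicosis and 32.1, 46.3 and 58.8 CPM in controls. N129 lay at the control level, so its call by edgeR (log2 fold change 2.24, SE 0.57, adjusted p = 0.0273) rests on N136 and N138, and it ended without N138 or any 1 control library (adjusted p from 0.0996 to 0.131), with limma-voom (0.213) and with DESeq2 (0.188).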

How the data were processed

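Raw whole-number counts per gene and library for mRNAs and lncRNAs were deposited by the authors; these are not normalised. The authors' deposited table holds log2 fold changes, silicosis over control, with adjusted p-values. The submitters' processing notes list, without roles, DESeq2 1.36.0, featureCounts 2.0.0, Bowtie2, HISAT2, Trimmomatic 0.39 and the build GRCm39. No source used here gives the strand setting or annotation. Each table was fitted whole with edgeR 4.0.16 (R 4.3.3): filterByExpr, TMM factors, the quasi-likelihood F test between groups, with Benjamini-Hochberg adjustment at 0.05. The filter kept 15808 of 17973 mRNAs. SE is the log2 fold change divided by the square root of F. Ratios use counts with 0.5 added. Lengths (union of exons) and shared windows (50 bases, every 5, either strand) come from GENCODE M21 on GRCm38, an earlier build than the authors', and promoters from the RefSeq table, GRCm38.p6. The fit was tested on simulated data.

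The 34 genes, the further lists and the markers were chosen with earlier results of these data known. In each further list the 3 called genes with the lowest p are named, or others where said; 1 of these is not reported here. Alternatives were limma-voom (limma 3.58.1), the DESeq2 1.42.0 Wald test, its size factors in edgeR, no filter, each library left out, a 2-fold minimum, 2 counts added in ratios and, for lncRNAs, mRNA totals; library totals alone were added after seeing the data. Libraries of a group were distinct (chi-square per degree of freedom 15.0 to 79.0). Mir210hg and Aldoart1 were not analysed here.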

Additional observations from a re-analysis of the deposited data

How the results depend on the processing

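Of the 34 genes, 23 kept their side of the threshold and their direction under all 11 alternatives: 13 higher, 3 lower (Pfkfb3, Epas1 and Vegfa) and 7 that did not pass. Over the libraries left out in turn, between 13 and 16 genes were higher and 3 or 4 lower. With a 2-fold minimum 6 genes were higher (5 glycolytic, 1 hypoxia) and 1 lower (0 glycolytic, 1 hypoxia), and 852 mRNAs were higher and 479 lower. The glycolytic genes that fell numbered 1 without the filter on low counts and with library totals alone, and 1 to 2 over the libraries left out. Where 1 fell, Hk1 no longer passed. Without N138 2 fell, as Pfkm passed (log2 fold change -0.39, edgeR adjusted p = 0.0449) and Hk1 did not. The cause was not tested. Directions turned only for genes that did not pass and for 1 ratio. Gpi1 was at 0.079 with library totals alone, and from -0.10 to 0.0285 over the libraries left out. Adm ran from -0.087 to 0.90 over the libraries left out. Malat1 was at 0.0284 with mRNA library totals, and from -0.25 to 0.0010 over the libraries left out. The difference in the Pdk4 to Pdk1 ratio ran from -0.12 to 0.72 over the libraries left out. No paired analysis was possible because the groups share no replicate numbers. With 3 libraries a group, the spread limits what can be called: Gapdh had an SE of 0.17, and Hk2, with a like log2 fold change, 0.09.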
